A study of Mus musculus with 2 samples.

Results

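Ly6c2+ C1q+ cells, leukocytes of Lewis lung carcinoma (LLC) tumors that held RNA of the monocyte gene Ly6c2 together with RNA of the macrophage complement genes C1qa, C1qb and C1qc, were examined in single-cell RNA-Seq data. A cell was a member with at most 10% of its UMIs (distinct captured mRNA molecules) from mitochondrial genes, at least 2 UMIs of Ly6c2, at least 10 UMIs of C1qa, C1qb and C1qc in sum, under 5 UMIs of Vcam1, Ccl8 and Folr2 in sum and under 3 UMIs of Cd300e, Clec4b1 and Pparg in sum. These criteria held for 422 of the 5167 cells of the series, 234 of them labelled wt and 188 labelled cko. The members were chosen by these UMI counts, so their levels of Ly6c2 and C1q, and their contrast with cells on the other side of a limit, are descriptions that carry no test.

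LLC cells come from a lung carcinoma of a C57BL mouse and form tumors in mice of that background. The control mice were mir-21flox/flox, with loxP sites around the gene of miR-21, and the conditional knockout mice carried the same floxed alleles with LysM-Cre, which recombines them where the lysozyme M promoter is active, as in macrophages, monocytes and granulocytes. Strain C57/BL6 and an age of 10 weeks were given for both groups, tumors were taken 14 days after implantation, and cells of 3 mice were pooled into 1 droplet library per group. The titles wt and cko group the libraries here, but the cell source description names the conditional knockout for the library titled wt, so each library is referred to by its title, and no direction between them can be assigned to a genotype with certainty. CD45+ cells, the pan-leukocyte fraction, are given as the sorted cells by the design text, whereas the growth protocol names a gate for macrophages and mice null for miR-21. With 1 library per group no difference between libraries has a replicate check or a p-value, and every interval below is one of counting error alone and holds nothing of the variation among mice.

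Monocytes with high surface Ly6C leave the blood through the chemokine receptor CCR2, enter tumors and can differentiate there into macrophages. During that change Ly6C and adhesion molecules of the blood stage are lost, and C1q, MHC class II and lysosomal proteases are gained. C1q is the recognition molecule of the classical complement pathway and is made by tissue macrophages. Cells with both kinds of RNA are therefore often read as intermediates, although one snapshot does not record the direction in which a cell was moving.

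The matrices held 2449 cells with a median of 8359 UMIs and 2718 cells with a median of 8247 UMIs, and no cell had fewer than 3184 UMIs. Lyz2, lysozyme M, the gene into which the LysM-Cre allele is inserted, measured 19046 CPM (UMIs of the gene per 1000000 UMIs, summed over the cells) in members labelled wt and 10938 CPM in members labelled cko, a log2 ratio of -0.80 (95% interval -0.82 to -0.78). Its lower level therefore followed the titles, and no library was moved on that account. The libraries shared 5 cell barcodes, of which 2 belonged to members of either library and 1 to a member in both.

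Among cells with at least 2 UMIs of Ly6c2, 758 cells labelled wt and 723 labelled cko held 0 to 4 C1q UMIs, only 44 and 49 held 5 to 9, 72 and 67 held 10 to 29, and 237 and 189 held 30 or more. Just outside the C1q limit, 41 and 43 cells that met every other limit held 5 to 9 UMIs, and just inside it 33 and 19 members held 10 to 14, so cells were few on either side. For Ly6c2, just inside the limit, 44 and 33 members held exactly 2 Ly6c2 UMIs, with medians of 66.5 and 65.0 C1q UMIs, and just outside it 79 and 77 cells that met every other limit held exactly 1, with medians of 74.0 and 76.0. Members held a median of 6 Ly6c2 UMIs in each library, up to 75 labelled wt and 102 labelled cko, and medians of 59.5 and 50 C1q UMIs.

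**Figure D1:**
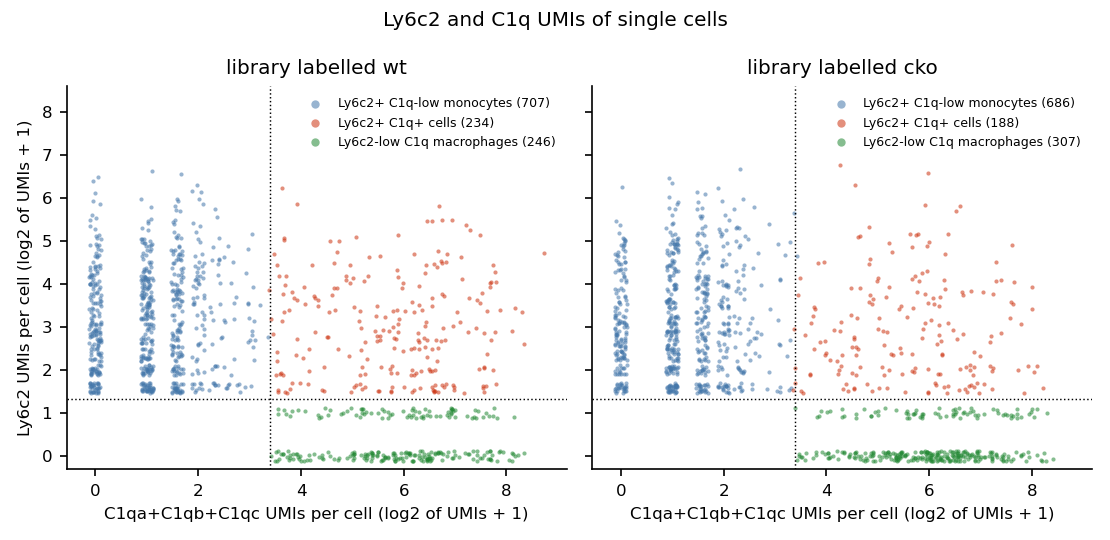
Each point is a cell, with UMIs of C1qa, C1qb and C1qc on the horizontal axis and of Ly6c2 on the vertical axis, both as log2 of UMIs plus 1 with a small random shift so that points do not hide each other; dotted lines mark the limits of 10 and 2 UMIs. The 234 and 188 members (red) lie right of the monocytes (blue), with few cells near the C1q limit, and above the macrophages (green), with many cells near the Ly6c2 limit.

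Free RNA in the droplets was judged in cells that should lack these genes. T cells held a median of 1 C1q UMI in each library at median depths of 5796 and 6829 UMIs, and 1 of 125 (0.8%, 95% Clopper-Pearson interval 0.0203 to 4.38) and 1 of 158 (0.633%, 0.0160 to 3.48) reached 10. Among dendritic cells, which were deeper, 0 of 32 labelled wt reached 10, which allows a share of up to 10.9%, and 4 of 48 labelled cko did (8.33%, 2.32 to 20), with a highest value of 16. Members at the lowest C1q counts, 33 labelled wt and 19 labelled cko at 10 to 14 UMIs, are therefore not clear of this background in the library labelled cko. Ly6c2 had to be judged in dendritic cells, because T cells can make it themselves. There 3 of 32 cells (9.38%, 1.98 to 25) labelled wt and 3 of 48 (6.25%, 1.31 to 17.2) labelled cko held 2 or more Ly6c2 UMIs, at median depths of 14240 and 9782 UMIs. At exactly 2 UMIs a member is thus less certain than one with more. Members with 6 or more numbered 133 and 98, but the highest value in a dendritic cell was 23 labelled wt and 3 labelled cko.

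Members made up 9.57% (8.43 to 10.8, Clopper-Pearson) of the 2445 cells labelled wt that passed the mitochondrial limit and 6.95% (6.02 to 7.98) of the 2704 labelled cko, a ratio of 0.726 (0.596 to 0.884). Set against cells with Ly6c2 alone, the shares were 21.1% and 18.3%, and the interval of their ratio held 1 (0.868, 0.713 to 1.06). Set against all cells with at least 10 C1q UMIs, they were 27.5% and 18.1%, a ratio of 0.659 (0.541 to 0.802). The ratio over all cells stayed between 0.608 and 0.766 under 10 other definitions of the cells, each with an upper bound below 1. Fewer members and more cells of other kinds cannot be told apart by a share. Over the same cells, C1q macrophages with Cd300e, Clec4b1 or Pparg took 6.50% and 10.1% (ratio 1.55, 1.27 to 1.90), the Ly6c2-low C1q macrophages took 10.1% and 11.4% (ratio 1.13, 0.951 to 1.34), and the monocytes 28.9% and 25.4% (0.877, 0.789 to 0.976).

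Then, members were set beside their neighbours on each side. Ly6c2+ C1q-low monocytes (707 and 686 cells) met the same limits except that C1q stayed under 10 UMIs, and held few UMIs of T and NK cell markers. Ly6c2-low C1q macrophages (246 and 307 cells) met the same limits except that Ly6c2 stayed under 2, and also held few UMIs of T and NK cell markers. Members had no limit on these markers. Members were deeper than both, with medians of 10133 and 9280 UMIs against 7980 and 7848 in the monocytes and 8610 and 8607 in the macrophages. Of the members, 2.99% and 2.66% were among the cells with the highest doublet scores, against 1.41% and 1.75% of the monocytes and 2.03% and 0.651% of the macrophages. Depth was varied by thinning cells to equal UMIs and, for the share of members, by keeping deeper cells alone. Droplets with 2 cells were addressed by leaving out the cells with the highest doublet scores. The part of either in the results was not tested beyond these values.

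Outside the genes of the rule, members lay between their neighbours for most genes that separated these. Of 8207 genes tested, 138 (1.68%) were at least 2-fold higher in the macrophages than in the monocytes in both libraries, and members were between them in both libraries for 109 of these 138 genes (79.0%). Another 165 genes (2.01%) were at least 2-fold lower in the macrophages, and members were between for 101 of them (61.2%). Members had covered a median of 0.660 (wt) and 0.577 (cko) of the log2 distance for the first set and 0.606 and 0.506 for the other, where 0 is the monocyte level and 1 the macrophage level.

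The list of 24 genes of Ly6C-high monocytes summed to 32424 CPM in monocytes, 22964 CPM in members and 16384 CPM in macrophages labelled wt, and to 35859, 25977 and 16547 CPM labelled cko. Members were between their neighbours in both libraries for 15 of the 24 genes, against 1874 of all 8207 tested. Most of the 8207 did not separate the neighbours by 2-fold. Of the 165 that were at least 2-fold lower in the macrophages, 101 (61.2%) were between, a share near that of the list. The genes of the list did not all stand at the same place between the neighbours. Ccr2, the receptor for the chemokine CCL2, was at 792 CPM in members against 828 CPM in monocytes and 591 CPM in macrophages labelled wt, and at 873, 929 and 640 CPM labelled cko. Hp, haptoglobin, was at 180 CPM in members against 674 and 86.5 CPM labelled wt, and at 294 against 970 and 106 CPM labelled cko. Members thus stood near monocytes for the chemokine receptor and nearer the macrophages, on the log scale, for haptoglobin.

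The list of 24 genes of maturing tissue macrophages summed to 3466 CPM in monocytes, 7568 CPM in members and 10815 CPM in macrophages labelled wt, and to 3980, 8921 and 12499 CPM labelled cko. Here 16 of 23 genes tested were between, against 109 of the 138 genes (79.0%) that were at least 2-fold higher in the macrophages. Ms4a7, a membrane protein of tissue macrophages, measured 99.0, 400 and 630 CPM in monocytes, members and macrophages labelled wt and 82.0, 303 and 408 CPM labelled cko. Pf4, platelet factor 4, a chemokine that macrophages also make, was further behind, at 54.9, 282 and 1132 CPM and at 72.4, 169 and 510 CPM.

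Per cell, UMIs of the macrophage list took a median of 20.7% (wt) and 22.4% (cko) of the UMIs of both lists in members, against 7.60% and 7.59% in monocytes and 34.8% and 40.2% in macrophages. The spread among members was wide, from 7.06% to 51.9% labelled wt and 6.49% to 55.2% labelled cko at the 5th and 95th percentiles, and it overlapped both neighbours. In a graph of each cell's 15 nearest neighbours made without the genes of the rule and without mitochondrial, sex-linked and ribosomal protein genes, neighbours of members were monocytes for 28.4% and 34.2%, members for 25.1% and 20.9%, and macrophages for 18.5% and 17.8%, where monocytes were 27.1%, members 8.20% and macrophages 10.7% of the neighbours of all cells. Most neighbours of members were thus cells of other populations.

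**Figure D2:**
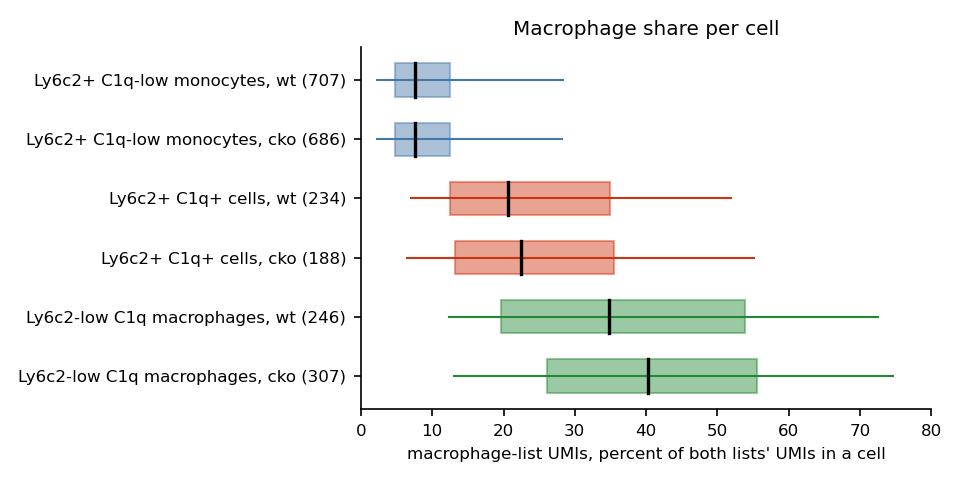
Macrophage-list UMIs as a percent of the UMIs of the monocyte and macrophage lists in each cell (horizontal axis), by population and library with the number of cells in brackets; black bars are medians, boxes the quartiles and lines the 5th to 95th percentile. Members, with medians of 20.7% and 22.4%, stand between monocytes and macrophages and overlap both.

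MHC class II genes, whose products present antigen to CD4 T cells, stood close to the macrophage level. The 11 genes of the list summed to 51744 CPM in members against 24612 CPM in monocytes and 55351 CPM in macrophages labelled wt, and to 41947 against 17880 and 49951 CPM labelled cko. Cd74, the invariant chain that guides MHC class II to the endosome, was at 23734 CPM in members against 11928 and 25032 CPM labelled wt and at 20489 against 8854 and 23100 CPM labelled cko. The lysosomal list of 16 genes summed to 25499 CPM in members against 20984 CPM in monocytes and 24379 CPM in macrophages labelled wt, and to 26964 against 21853 and 23400 CPM labelled cko, with 8 of 16 above both neighbours in both libraries and 5 between, against 931 and 1874 of all 8207 genes. With neighbours that held Csf1r and few UMIs of Siglech, Cxcr2 and Retnlg, 6 were above and 7 between. Ctsc, cathepsin C, was at 4229 CPM against 3076 and 3855 CPM labelled wt and at 4410 against 3055 and 3364 CPM labelled cko, whereas Ctsl, cathepsin L, was at 518 CPM against 391 and 968 CPM labelled wt and at 506 against 387 and 834 CPM labelled cko. Of the ribosomal protein genes 11 of 12 were below both neighbours in both libraries, against 969 of all 8207 genes, with sums of 24285 CPM against 27475 and 27017 CPM labelled wt and 24038 against 26886 and 29891 CPM labelled cko.

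Of the genes that type I interferons induce, most were above both neighbours in members, by little against the monocytes. The list of 18 genes summed to 3713 CPM in members, 3135 CPM in monocytes and 1591 CPM in macrophages labelled wt, and to 3946, 3092 and 1567 CPM labelled cko. Of the 18 genes, 12 were above both neighbours in both libraries and none was below both, against 931 above and 969 below of all 8207 genes. Most of that distance was to the macrophages: the median difference of the 18 genes was 1.23 (wt) and 1.56 (cko) on the log2(CPM + 1) scale from macrophages and 0.14 and 0.27 from monocytes, where the median over all genes tested was between -0.03 and 0.01. None of the 18 reached 1.5-fold above both neighbours. Isg15, a ubiquitin-like protein conjugated to other proteins after interferon, was at 766 CPM in members against 593 and 293 CPM labelled wt and at 734 against 537 and 246 CPM labelled cko. Irf7, the factor that amplifies interferon transcription, was at 705 CPM against 471 and 234 CPM labelled wt and at 762 against 472 and 274 CPM labelled cko. Ifit1, which binds RNA without host cap methylation, was at the monocyte level labelled wt (164 CPM against 165 and 36.4 CPM) and above it labelled cko (164 against 132 and 42.4 CPM). Over 11 alternative settings, 11 to 16 of the 18 genes were above both. The lowest count came with neighbours that held Csf1r and few UMIs of Siglech, Cxcr2 and Retnlg, and without the top cell of each gene.

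**Figure D3:**
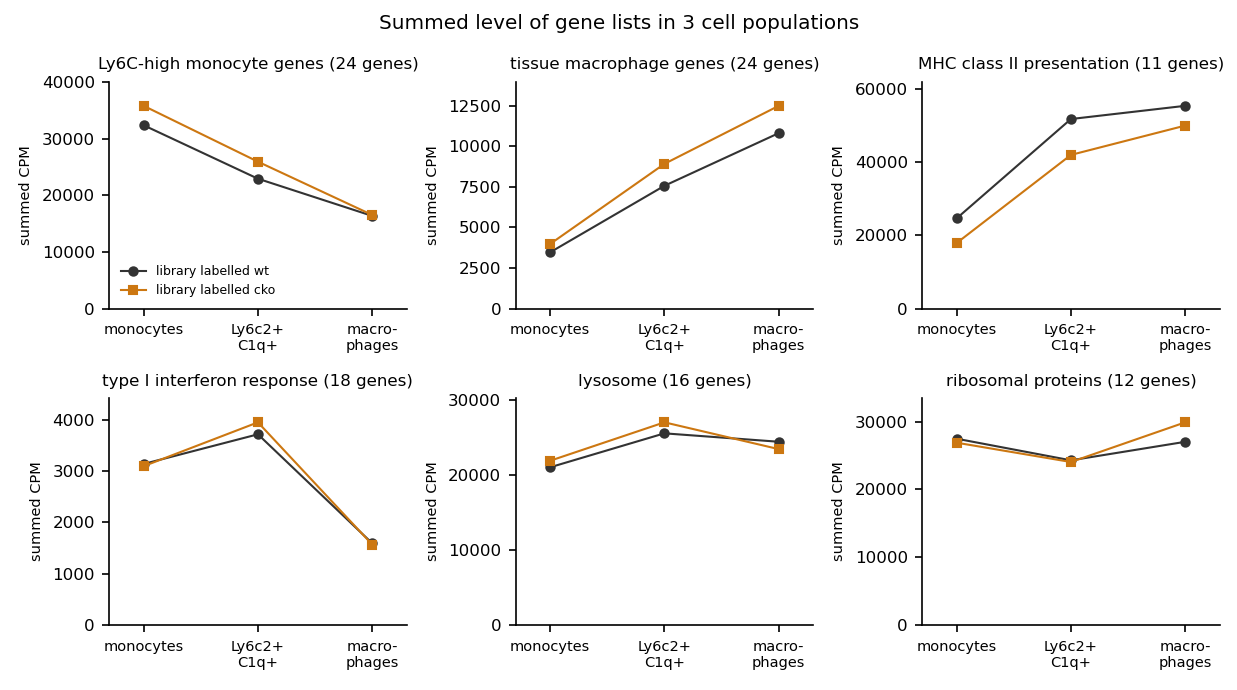
Summed CPM (vertical axis, from 0) of 6 gene lists in monocytes, Ly6c2+ C1q+ members and macrophages, with circles for the library labelled wt and squares for the library labelled cko. Monocyte, macrophage and MHC class II lists change in steps across the 3 populations, whereas the type I interferon list is highest in members, at 3713 and 3946 CPM, and the ribosomal list is lowest there.

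The promoters of these genes were read from the RefSeq promoter table (build GRCm38.p6, 250 bases before to 50 after the start), which held 14 of the 18 genes of the interferon list. GAAANNGAAA or its complement TTTCNNTTTC, the repeat that interferon regulatory factors are known to bind, was searched on both strands. It was present in the promoters of 7 of these 14 genes and of 8 of the 10 interferon gamma genes that the table held, and in 1131 of all 32851 promoter entries (3.44%). Of the 12 genes named next as highest above both neighbours, 6 had an entry and 1 of these, Phf11a, a match. A match is a description of letters, not of binding. The promoters of Isg15 (chr4:156200769-156201068, minus strand), Ifit1 (chr19:34640639-34640938, plus strand) and Phf11a (chr14:59297473-59297772, minus strand) are shown as examples of promoters with 1 to 3 matches among the interferon list and the genes highest in members, and matches are in capitals. Ifit1 was above both neighbours labelled cko only, and Phf11a is not on the interferon list. Isg15 holds 3 matches that overlap, Ifit1 holds 2 and Phf11a holds 1.
Isg15: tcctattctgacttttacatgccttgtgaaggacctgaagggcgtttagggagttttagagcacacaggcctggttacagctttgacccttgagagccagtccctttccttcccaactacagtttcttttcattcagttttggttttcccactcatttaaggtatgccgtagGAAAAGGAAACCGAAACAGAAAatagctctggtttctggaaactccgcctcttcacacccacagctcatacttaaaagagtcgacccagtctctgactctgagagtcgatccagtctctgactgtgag
Ifit1: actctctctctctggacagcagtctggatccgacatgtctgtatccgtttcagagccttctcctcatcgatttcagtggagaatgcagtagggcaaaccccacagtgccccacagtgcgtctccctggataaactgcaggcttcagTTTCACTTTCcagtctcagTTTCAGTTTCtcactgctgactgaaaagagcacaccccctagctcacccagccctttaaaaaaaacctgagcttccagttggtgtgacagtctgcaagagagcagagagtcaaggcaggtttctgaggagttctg
Phf11a: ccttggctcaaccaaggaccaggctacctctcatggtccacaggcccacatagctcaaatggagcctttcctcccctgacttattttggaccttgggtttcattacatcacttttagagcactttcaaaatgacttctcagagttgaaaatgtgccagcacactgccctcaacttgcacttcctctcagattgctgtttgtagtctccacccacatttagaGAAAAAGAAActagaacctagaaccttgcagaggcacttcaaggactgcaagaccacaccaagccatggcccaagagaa

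At 1.5-fold, 13 of 8207 genes (0.158%) were above both neighbours in both libraries. The 12 of these with at least 100 UMIs per library that lay furthest above were Ccl5, Cfb, Phf11d, Fbxw17, Iigp1, Klrk1, Ly6a, Sectm1a, Spon1, Il18bp, Phf11a and Cd200r4, and the other one was Fanca. Cfb, complement factor B of the alternative pathway (ENSMUSG00000090231, chromosome 17, 34856374 to 34862518, minus strand), was at 127 CPM (wt) and 109 CPM (cko) in members, against 61.3 and 45.7 CPM in monocytes and 45.8 and 33.7 CPM in macrophages. After every cell was thinned to 3000 UMIs, Cfb had a UMI in 21.8% (16.7 to 27.6) and 20.7% (15.2 to 27.2) of members, against 13.3% and 12.8% of monocytes, 12.2% and 10.7% of macrophages and 0% and 0.633% of T cells. The unthinned shares of members were 52.6% and 44.1%. Cfb passed under all 11 alternative settings, one of which asked for 2-fold. Phf11d, Fbxw17, Iigp1, Klrk1, Ly6a, Il18bp and Ccl5 passed under 10 of 11, Fanca and Sectm1a under 9, Phf11a under 8, Cd200r4 under 7 and Spon1 under 6.

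Phf11d and Phf11a are neighbouring genes on chromosome 14 (59347407 to 59365470 and 59276913 to 59297522, GRCm38) that share sequence, so reads may be split between them. Phf11d was at 127 and 113 CPM in members, against 72.3 and 58.1 CPM in monocytes and 46.3 and 49.7 CPM in macrophages. Phf11a was at 62.5 and 60.1 CPM, against 34.9 and 37.7 CPM and 19.3 and 23.4 CPM. Il18bp, the secreted decoy that binds interleukin 18, was at 93.4 and 85.8 CPM, against 51.9 and 50.4 CPM and 58.7 and 46.9 CPM. Spon1, a secreted matrix protein, was at 63.7 and 77.9 CPM, against 28.7 and 29 CPM and 39.4 and 48.5 CPM. Against neighbours that held Csf1r and few UMIs of Siglech, Cxcr2 and Retnlg, Spon1 and Phf11a no longer passed 1.5-fold.

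Some of these genes are also made by T cells. Klrk1, the activating receptor NKG2D, was at 92.6 and 63.8 CPM in members, against 53.9 and 34.2 CPM in monocytes and 40.3 and 29.5 CPM in macrophages, and at 463 and 383 CPM in T cells. Ly6a, Sca-1, was at 1224 and 1034 CPM, against 744 and 610 CPM and 524 and 462 CPM, and at 936 and 885 CPM in T cells. Ccl5, a chemokine for T cells and monocytes, was at 170 and 362 CPM, against 74.0 and 49.7 CPM and 29.1 and 12.8 CPM, and at 2448 and 1623 CPM in T cells. The 8 T cell markers together were at 61.7 and 30.9 CPM in members, against 29.2 and 20.1 CPM in monocytes and 21.8 and 14.8 CPM in macrophages, with Cd8a at 0 labelled cko. Cd3 genes reached 3 UMIs in 3 and 2 members. Without these members all 13 genes remained above both neighbours, and the smallest of the 4 log2 differences was 0.70 for Klrk1, 0.74 for Ly6a and 1.19 for Ccl5. Ccl5 rested on few cells, since 1 member labelled cko held 596 of its 692 UMIs there and 1 labelled wt held 90 of 429, and among members with at least 6 Ly6c2 UMIs its smallest difference was -0.18.

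Below both neighbours were 21 of 8207 genes (0.256%). Of those with at least 100 UMIs per library, the furthest below were Mmp9, Gm5483, Rapgef1, Tsc22d1, Cxcl2, Gclm, Id3 and Eno3. Mmp9, gelatinase B, was at 6.33 and 1.57 CPM in members, against 37.6 and 17.4 CPM in monocytes and 36.4 and 49.4 CPM in macrophages, from 16 and 3 UMIs. Cxcl2, a chemokine for neutrophils, was at 90.6 and 166 CPM, against 244 and 296 CPM and 261 and 321 CPM. The 8 neutrophil markers, Mmp9 among them, had higher sums in the neighbours, with 4 of the 8 below both neighbours in both libraries. They summed to 414 and 677 CPM in members, against 2969 and 7796 CPM in monocytes and 839 and 935 CPM in macrophages. When the neighbours had to hold Csf1r, the receptor for the growth factor of macrophages, and few UMIs of Siglech, Cxcr2 and Retnlg, 6 genes were below both and 3 of the 21 remained, Mmp9, Rapgef1 and Id3. The largest of the 4 log2 differences of Cxcl2 from such neighbours was 0.49, so it was not below all of them. By that definition 13 genes were above both, of which 11 were among the first 13.

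**Figure D4:**
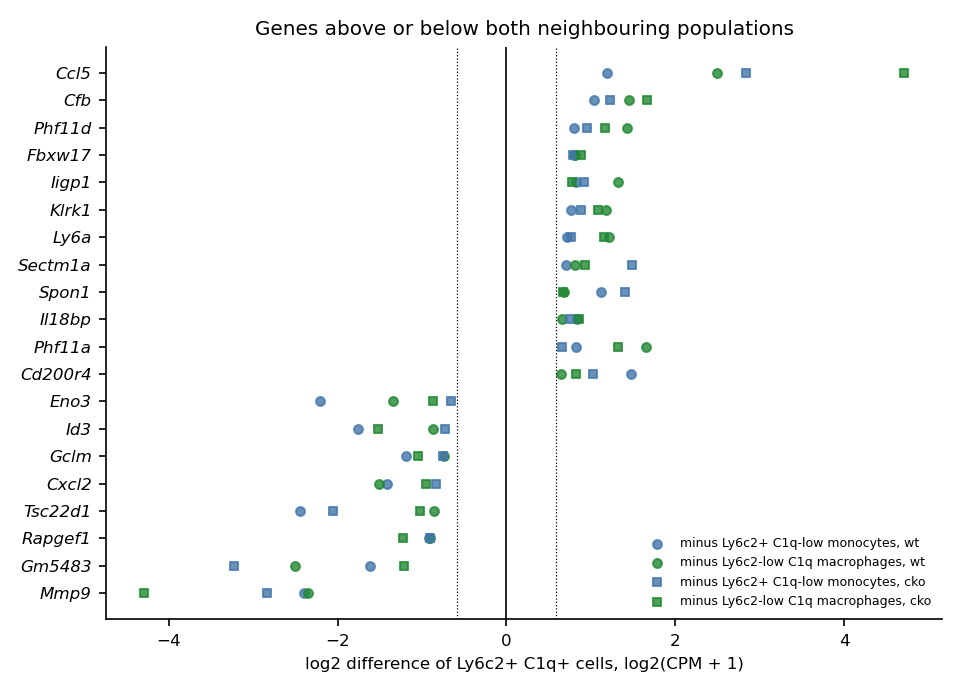
Log2 differences of members from Ly6c2+ C1q-low monocytes (blue) and Ly6c2-low C1q macrophages (green) on the log2(CPM + 1) scale for the 20 named genes, with circles for the library labelled wt and squares for cko; dotted lines mark 1.5-fold. The 12 upper genes have all 4 points to the right and the 8 lower genes all 4 to the left.

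Members were then divided by Ly6c2 per 10000 UMIs of the cell at 3.95 and 11 into low (77 and 64 cells), middle (75 and 65) and high (82 and 59) groups, a description within the members, since Ly6c2 had chosen them. Median depths were 11020, 9679 and 9141 UMIs labelled wt and 10102, 8863 and 9142 UMIs labelled cko. The monocyte list summed to 18644, 23393 and 28105 CPM from low to high Ly6c2 labelled wt and to 22665, 25922 and 30179 CPM labelled cko. MHC class II was lower with more Ly6c2, from 60103 to 48363 and 44352 CPM and from 47090 to 41080 and 36473 CPM. The type I interferon list was higher with more Ly6c2, at 2374, 3720 and 5431 CPM labelled wt, and at 2823, 3673 and 5652 CPM labelled cko. Of its 13 genes with at least 100 UMIs of members in each library, 13 were higher in the high than in the low group in both libraries, against 842 of all 2516 genes. The 12 ribosomal protein genes were lower in the high group in both libraries, against 765 of 2516 genes. C1q itself did not order with Ly6c2 in the same way in both libraries, at 7140, 7655 and 7061 CPM and at 7716, 6002 and 6410 CPM.

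At least 2-fold higher in the high group in both libraries were 12 of the 2516 genes (0.477%), among them Ly6i, Ifit1bl1, Isg20, Phf11d, Cfb, Isg15, Irf7, Ifi205, Nt5c3, Chil3 and Pyhin1. Isg15 went from 419 to 720 and 1260 CPM labelled wt and from 484 to 653 and 1135 CPM labelled cko. Cfb went from 78.8 to 120 and 197 CPM and from 57.5 to 52.4 and 235 CPM, so that the high group alone stood out in the library labelled cko. At least 2-fold lower were 4 genes (0.159%), Ero1l, an oxidoreductase of the endoplasmic reticulum that responds to hypoxia, the matrix metalloproteinases Mmp12 and Mmp13, and the metallothionein Mt1. Ero1l was at 102 CPM in the low and 36.5 CPM in the high group labelled wt and at 101 and 36.8 CPM labelled cko, log2 differences of -1.46 and -1.43. Mmp13, collagenase 3, went from 201 to 61.2 CPM and from 80.0 to 35.1 CPM.

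Next, members of the 2 libraries were compared. Of 6290 genes whose members' UMIs reached 50 over the libraries, 33 (0.525%) were at least 2-fold higher and 25 (0.397%) at least 2-fold lower in the library labelled cko, and the median log2 ratio, cko over wt, was 0.00. Single cells decided several of them. Jchain and Mzb1, genes of antibody-secreting cells and plasmacytoid dendritic cells, had 645 of 645 and 118 of 119 UMIs of members labelled cko in 1 cell each. Ccl5 had a log2 ratio of 1.09 (0.92 to 1.27) with all members and -1.42 (-1.76 to -1.09) without the top cell of each library. Slpi, an inhibitor of leukocyte proteases, had 232 of 406 UMIs labelled cko in 1 cell, and its ratio was 1.10 with it and 0.40 (0.09 to 0.71) without the top cells. Hmox1, heme oxygenase 1, had 288 of 1086 UMIs in 1 cell, with ratios of 1.17 and 0.91.

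Other genes stayed higher labelled cko without the top cell of each gene. Apoe, apolipoprotein E, which carries lipid out of macrophages (ENSMUSG00000002985, chromosome 7, 19696109 to 19699188, minus strand), was at 1242 CPM in members labelled wt and 2883 CPM labelled cko, a log2 ratio of 1.21 (1.15 to 1.28). It had a UMI in 168 of the 234 and 177 of the 188 members. The ratio was 1.20 in monocytes, 1.30 in macrophages and 1.18 in T cells, where Apoe was at 45.9 and 104 CPM, so cells that held little Apoe had a ratio of like size. Chil3, a chitinase-like protein of Ly6C-high monocytes, was at 610 and 1433 CPM (1.23, 1.14 to 1.32), and at ratios of 1.03 in monocytes and 0.92 in macrophages. Gbp2b, a guanylate-binding GTPase, was at 65.3 and 186 CPM (1.51, 1.24 to 1.79), with 1.30 in monocytes and 1.39 in macrophages. It had a UMI in 20.1% and 35.1% of members. Ifi44 and Ifi44l, interferon-induced genes that lie side by side on chromosome 3 (151730922 to 151749960 and 151758737 to 151762892), had ratios of 1.23 (0.93 to 1.53) and 1.61 (1.17 to 2.06) in members and of 1.52 and 1.68 in monocytes, with Ifi44 at 0.91 in thinned members. The other interferon genes did not share that size: Ifi44 was the one gene of the 18 of the list past 2-fold, and the median of the list was 0.10.

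Lyz1, the second lysozyme gene, lies next to Lyz2 on chromosome 10 (117287797 to 117292868 and 117277331 to 117282321) and is nearly identical to it, so that reads may be split between them. Lyz1 was at 32.1 CPM labelled wt and 276 CPM labelled cko in members, a log2 ratio of 3.11 (2.77 to 3.46), with 117 of its 528 UMIs labelled cko in 1 cell and a ratio of 2.80 without the top cells. Among members with at least 6 Ly6c2 UMIs it was 2.43, and it was 3.53, 3.54 and 1.32 (0.61 to 2.05) in members of low, middle and high Ly6c2. Its ratio was 1.59 in monocytes and 2.32 in macrophages. The shares of members with a Lyz1 UMI were closer, at 26.9% and 31.9% unthinned and 9.83% and 14.4% thinned. Lyz2 went the other way in all 3 populations, at -0.80, -0.97 and -1.27.

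Several genes were lower in members labelled cko. Ccl7, a CCR2 ligand that recruits monocytes, was at 384 CPM labelled wt and 126 CPM labelled cko, a log2 ratio of -1.61 (-1.82 to -1.40), and at -0.61 in monocytes and -0.55 in macrophages. When the rule was applied to cells thinned to 3000 UMIs the members' ratio was -0.72, short of 2-fold, and the shares of members with a Ccl7 UMI were close, at 29.9% and 28.7% unthinned and 15% and 14.4% thinned. Ccl2, the main CCR2 ligand, was at 370 and 329 CPM (-0.17, -0.31 to -0.02) and Ccl12, another ligand, at 255 and 204 CPM (-0.32, -0.51 to -0.14). The 9 CC chemokines tested had a median of 0.42, with 5 intervals above 0, among them that of Ccl5, and 3 below, against 442 and 294 of all 6290 genes. Without the top cells the ratio of Ccl5 was -1.42. Tgfb1, transforming growth factor beta 1 (chromosome 7, 25687002 to 25705077), was at 435 and 176 CPM (-1.31, -1.49 to -1.13), in 218 of 234 and 142 of 188 members, and its ratio was -1.50 in monocytes, -1.58 in macrophages and -1.44 in T cells. Mmp13 was at 144 and 59.6 CPM (-1.27, -1.59 to -0.97), with -0.32 in monocytes, whose interval held 0, and -0.45 in macrophages. The shares of members with a Mmp13 UMI were 21.8% and 20.7% unthinned and 13.2% and 9.57% thinned. Mrc1, the mannose receptor, was at 120 and 70.1 CPM (-0.78, -1.08 to -0.48), with -0.88 and -0.64 in the neighbours. Fabp5, a fatty acid binding protein, was at 878 and 626 CPM (-0.49, -0.59 to -0.39), with -0.51 and -0.64.

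**Figure D5:**
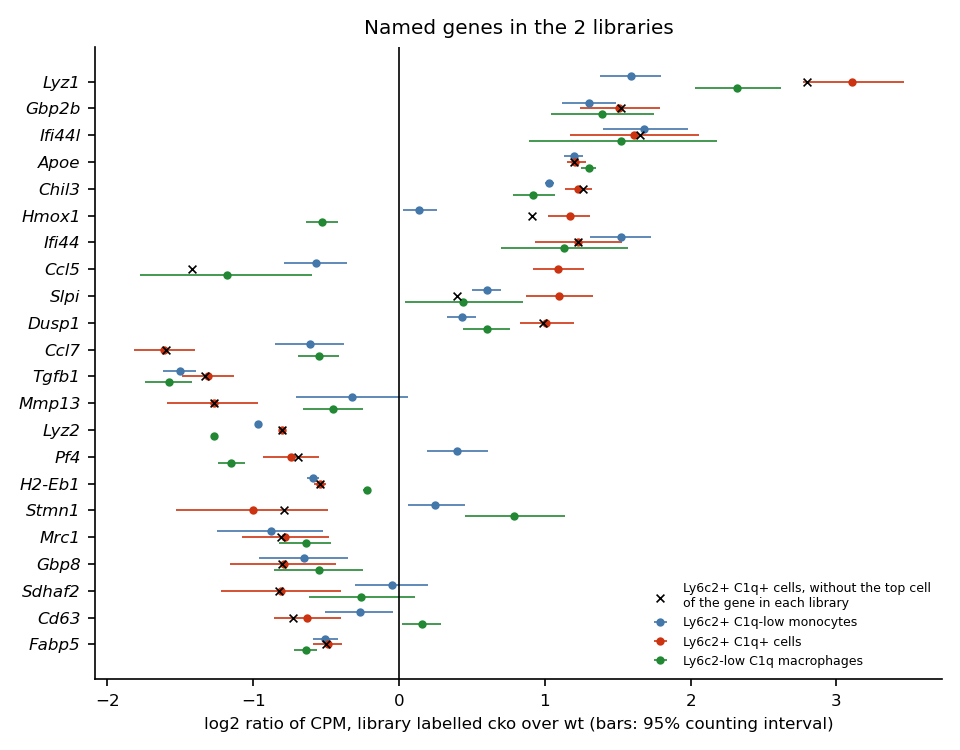
Log2 ratios of CPM, cko over wt, of 22 named genes in members (red), monocytes (blue) and macrophages (green), with bars for the 95% counting interval and crosses for members without the cell with most UMIs of the gene in each library; Jchain and Mzb1, held by 1 cell each, are not drawn. Apoe, Gbp2b and Tgfb1 stand at like values in the 3 populations, while the cross of Ccl5 lies at -1.42, on the other side of 0 from its ratio of 1.09.

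Of all 6290 genes, 3179 had ratios above 0 and 3111 below, and the intervals of 442 lay above 0 and of 294 below. By list, 22 of 23 monocyte genes tested had ratios above 0 in members, 18 of them with intervals above 0, with a median log2 ratio of 0.34, and 2 of the 23, Fn1 and Chil3, were past 2-fold. The list had medians of 0.19 in monocytes and 0.03 in macrophages. Neutrophil markers moved with it and further, with ratios above 0 for 5 of 5 tested, 4 of them with intervals above 0, and medians of 0.83 in members, 1.24 in monocytes and 0.26 in macrophages, and their part in the result was not tested. Hp was at 180 and 294 CPM (0.71, 0.53 to 0.89), while Plac8 was at 4700 and 4997 CPM (0.09, 0.05 to 0.13). Ly6a was the one gene of the list that was lower (-0.24, -0.33 to -0.16). The macrophage list had a median of -0.15, with 5 intervals above 0, 9 below and 7 that held 0.

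MHC class II genes had ratios below 0 in members for 10 of 11 genes, 7 of them with intervals below 0, with a median of -0.24 and none past 2-fold. The list had medians of -0.38 in monocytes and -0.12 in macrophages, and 294 of all 6290 genes had intervals below 0. H2-Eb1, the beta chain of I-E, was at 6097 and 4200 CPM (-0.54, -0.58 to -0.50), and its ratio was -0.59 in monocytes and -0.22 in macrophages. Ciita, the coactivator that switches on these genes, was at 47.5 and 31.4 CPM (-0.60, -1.07 to -0.14). Cd40, a costimulatory receptor of the same list, was at 65.3 and 83.2 CPM (0.35, 0.03 to 0.67). Genes that interferon gamma induces had a median of -0.20, with ratios below 0 for 12 of 13, intervals below 0 for 6 and intervals that held 0 for 7. Gbp2 was at 591 and 447 CPM (-0.40, -0.53 to -0.28) and Socs1, which dampens cytokine signaling, at 43.1 and 27.7 CPM (-0.64, -1.14 to -0.15). The median of the list was -0.21 in monocytes and -0.18 in macrophages, and 0.02 among members with at least 6 Ly6c2 UMIs.

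Of 15 transcription factors of the lineage tested, 6 had intervals above 0, 9 had intervals that held 0 and none lay below, with a median of 0.25 and ratios above 0 for 13. Their median was 0.03 in monocytes and -0.04 in macrophages. Over all 6290 genes, 442 intervals lay above 0 and 294 below. Cebpb, a factor of monocyte and inflammatory genes, was at 555 and 771 CPM (0.48, 0.37 to 0.58) and Klf2, which restrains inflammatory activation, at 146 and 272 CPM (0.90, 0.70 to 1.09). Immediate-early and heat-shock genes, which also react to the handling of cells, had a median of 0.34 in members, 0.24 in monocytes and 0.48 in macrophages, with Dusp1, a phosphatase that switches off MAP kinases, at 153 and 309 CPM (1.01, 0.83 to 1.20). Of 8 known targets of miR-21 tested, 3 had intervals above 0 and 5 had intervals that held 0, with a median of 0.12. The median of these targets was 0.05 in monocytes and 0.23 in macrophages. Pdcd4 was at 14.2 and 14.6 CPM (0.04, -0.73 to 0.79), so no difference in it was detectable at this depth, and Rhob was at 34.4 and 54.9 CPM (0.67, 0.25 to 1.10). Lysosomal genes had a median of 0.05 and ribosomal genes of -0.02.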

How the data were processed

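The authors deposited raw UMI counts per gene and cell for 2 libraries (10x Genomics Single Cell 3' chemistry, version 2), with values as whole numbers for 27998 genes and totals of 24492486 (wt) and 27163485 (cko) UMIs. Per the labels, Cell Ranger, Seurat and build mm10 were used; their versions and the gene annotation are not given in the sources used here. Gene coordinates came from GENCODE for GRCm38, matched by Ensembl identifier, and promoters from RefSeq.

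Counts of rows with 1 symbol were added, then counts were summed over the cells of a population per library and scaled to CPM. Ratios between libraries have exact conditional binomial 95% intervals, and shares have Clopper-Pearson ones. As each group was 1 library, no test was made. Fold calls needed 50 UMIs of a gene, counted in members of the libraries together for the ratio and in each library's 3 populations for the neighbours, and a pseudocount of 1 CPM for the neighbours. Genes of the rule, mitochondrial and sex-linked genes were left out. Doublets were scored on each library with scanpy 1.11.5; the automatic limit marked 0 and 5 cells, too few to rely on, so doublets were kept and the highest scores, 48 and 59 cells, were left out in an alternative.

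Named genes were 12 genes each way by the interval bound of the ratio nearest to 0, the 12 furthest above and 8 furthest below both neighbours (at least 100 UMIs each), and, of the lists, the most abundant genes and those that differed most between neighbours. Other list genes were chosen after their values were seen. The groups by Ly6c2 and their genes were added after the data were seen. Members and lists were chosen with earlier results of these data known. Interval code was tested on simulated data. Alternatives changed the limits of the rule, the minimum of UMIs, the scaling and the neighbours, thinned cells to 3000 UMIs, or left out doublet scores or top cells. Tools were Python 3.11.15, numpy 2.4.6, scipy 1.17.1, pandas 2.3.3, scikit-learn 1.9.0, matplotlib 3.10.9 and, for scaling factors, edgeR 4.0.16. The row of the miR-21 gene was not analysed here.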

Additional observations from a re-analysis of the deposited data

Results flagged for a closer look

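Among the genes named for their ratio, 7 comparisons of members with a neighbour had ratios, cko over wt, with intervals on opposite sides of 0. The difference itself was not tested, and each rests on 1 library per group. Hmox1 had a log2 ratio of 1.17 in members and -0.53 in macrophages. In members 288 of 1086 UMIs labelled cko lay in 1 cell. The members' ratio was -0.26 when the rule was applied to cells thinned to 3000 UMIs and -0.22 (-0.60 to 0.16) in the high Ly6c2 group. Ccl5 had 1.09 in members, -0.57 in monocytes and -1.18 in macrophages, with 596 of 692 UMIs labelled cko in 1 member and -1.42 without the top cells. Stmn1, a microtubule protein of dividing cells, had -1.0 in members, 0.25 in monocytes and 0.79 in macrophages, with 39 of 119 UMIs labelled wt in 1 member. Its ratio in members was 0.32 when the rule was applied to cells thinned to 3000 UMIs. Pf4 had -0.74 in members and 0.40 in monocytes, but 0.20 (-0.11 to 0.50), -2.78 (-3.21 to -2.37) and 1.53 (1.02 to 2.07) in members of low, middle and high Ly6c2. Cd63, a tetraspanin of lysosomes, had -0.63 in members and 0.16 in macrophages, with -1.68 (-2.17 to -1.22) in the middle Ly6c2 group and intervals that held 0 in the others.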

How the results depend on the processing

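No paired analysis was possible because each group was 1 library and the labels give no replicate numbers. Of 745 recomputed values, 15 changed sign. A ratio or share was taken as kept within its counting interval, a median over genes or cells within its order-statistic interval (under 6 genes, the range), a count within 1.5 times and a difference from both neighbours within 0.25 (log2). By that measure 652 were kept and 84 moved, and 9 more, whose interval held no 0 or which were differences from both neighbours, changed sign. The intervals of short lists are wide, and the G2 and M phase list, 5 genes with a median of -0.02, ranged from -1.18 to 0.34. Genes at least 2-fold higher and lower labelled cko numbered 127 and 122 with a minimum of 20 UMIs and 1406 and 1522 with a minimum of 1 UMI, since genes of few UMIs enter, and 16 were lower when the rule was applied to cells thinned to 3000 UMIs. Genes above and below both neighbours numbered 2 and 4 at 2-fold, and 25 and 56 among members with at least 6 Ly6c2 UMIs; 40 were below with a minimum of 20 UMIs and 6 against neighbours with Csf1r and without Siglech, Cxcr2 or Retnlg. The median macrophage share labelled wt was 25.7% without the most abundant gene of each list and 17.7% with at least 6 Ly6c2 UMIs. The 9 changes of sign were in Hmox1 (-0.26, thinned), Stmn1 (0.32, thinned), Ccl5 (-3.22 thinned, -1.42 without top cells, -2.72 with at least 6 Ly6c2 UMIs), the interferon gamma list (0.02, at least 6 Ly6c2 UMIs) and the S phase list (0.17 in place of -0.11, thinned), and, against both neighbours, Ccl5 (-0.18, at least 6 Ly6c2 UMIs) and Cxcl2 (0.49, neighbours with Csf1r). The other 6 changes of sign were in medians near 0: the G2 and M phase list (0.26 by mean over cells, 0.17 with at least 20 C1q UMIs, 0.23 without doublet scores, 0.34 without lymphocyte markers), the hypoxia list (-0.18 in place of 0.03, at least 6 Ly6c2 UMIs) and the heme and iron list (-0.14 in place of 0.05, thinned). The cause was not tested. Ratios and list medians marked thinned were of full counts, summed over cells that met the rule after thinning. The settings on lymphocyte markers, on 6 Ly6c2 UMIs, on Csf1r and on top cells against the neighbours were chosen after seeing the data. TMM and median-of-ratios scaling shifted ratios by -0.015 and -0.003.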
